A study of Drosophila melanogaster with 2 samples.

Results

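The 9 genes described here, kkv, knk, serp, verm, obst-A, obst-B, obst-E, Gasp and Cht2, make, modify, bind or cut chitin in the extracellular matrix of Drosophila melanogaster. They were chosen by name as the probe sets whose only annotated gene is one of the 9. This gave 12 probe sets of 14010 on the array, for 9 of the 10843 genes that were read by single-gene probe sets. The genes kkv, knk, verm, obst-B, Gasp and Cht2 were each read by 1 probe set, and serp, obst-A and obst-E by 2.

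Chitin is a polymer of N-acetylglucosamine that insects spin at the apical surface of the epidermis, the tracheal tubes and the foregut and hindgut. A membrane-bound synthase extrudes it, organising proteins and deacetylases shape the fibres, small chitin-binding proteins of the obstructor family pack them into a matrix, and chitinases cut them when a cuticle is made or shed. In the late embryo the same machinery builds the first cuticle and, inside the growing tracheae, a temporary chitin cable that controls the length and width of the tubes.

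RNA was compared between yw, the control, which carries yellow, a mutation of body pigment, and white, one of eye pigment, and animals homozygous for a mutation in mbf1. The labels give no allele, do not say what the mutation removes, and do not say whether the mutants also carry yellow or white. MBF1, multiprotein bridging factor 1, is a coactivator that links DNA-bound transcription factors to the TATA-binding protein. Both groups are labelled as embryos kept on apple juice plates for 16 h after egg laying at 25 °C, and the number of animals pooled is not given in the sources used here. Each genotype was read on 1 array, Affymetrix's DrosGenome1, so no value below has a replicate error, no test between genotypes was possible, and each difference is one between 2 arrays. In RNA of whole animals, fewer cells of a type and less RNA per cell cannot be told apart.

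Signals are intensities in array units, with the yw array as deposited and the mbf1 array divided by 1.47, the factor by which the bulk of its bright probe sets exceeded yw. A signal of 17.7 was taken as the floor under which probe sets were not read as measured, and where 1 array was under it the fold is a bound, marked by the words at least. Genes at least 2-fold apart were counted as higher or lower. A gene with 2 probe sets was counted by the brighter one. Probe sets differ in their response, so each gene is compared only with itself. The mbf1 transcript itself had signals of 478.7 in yw and 22.1 in mbf1.

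Markers of the adult male accessory gland went against the label of both groups. Of 10 genes of the adult male accessory gland with a probe set, all 10 were above the floor on both arrays, where 66.0% of all genes were above it in yw and 66.3% in mbf1. Of 16 testis genes 12 were above it on yw and 13 on mbf1, with median signals of 578.0 and 626.1. Of 11 genes of larval and pupal cuticle, 3 were above it on yw and 5 on mbf1, and of 8 tracheal genes 5 and 6. Among the tracheal genes uif, pyd, sty, rib and tgo were above it on both arrays, and bnl and btl, the tracheal FGF receptor, under it on both. Whether the RNA held tissue from other stages was not tested. The ratios of 3′ to 5′ control probe sets, which rise when RNA is degraded, were 2.33 and 2.20 for actin, 2.57 and 2.88 for GAPDH and 3.09 and 2.55 for eIF-4a on the yw and mbf1 arrays.

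Relative to the bulk of genes, most of the chitin genes had a lower signal in mbf1 than in yw. Without scaling between the arrays, obst-E was not lower by its brighter probe set. In that setting knk, at 13.4 in yw and 23.4 in mbf1, passed the floor of 21.4 on mbf1 only. It therefore came out higher, while Cht2 was not measured. On the yw array 8 of the 9 genes were above the floor, all except knk, and on the mbf1 array 5 were, namely serp, verm, obst-A, obst-B and obst-E, where 66.0% of all genes were above it in yw and 66.3% in mbf1. At least 2-fold lower were 2 genes, obst-B and serp, where 1.63% of the 7688 measured genes were called lower. Without scaling neither was called, on hybridization controls and with probe sets averaged only obst-B was, and only serp was when the floor was raised to the 60th percentile. None of the 9 genes was called higher by its brighter probe set, where 1.51% of measured genes were, though the dimmer probe set of obst-E lay at that threshold.

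**Figure D1:**
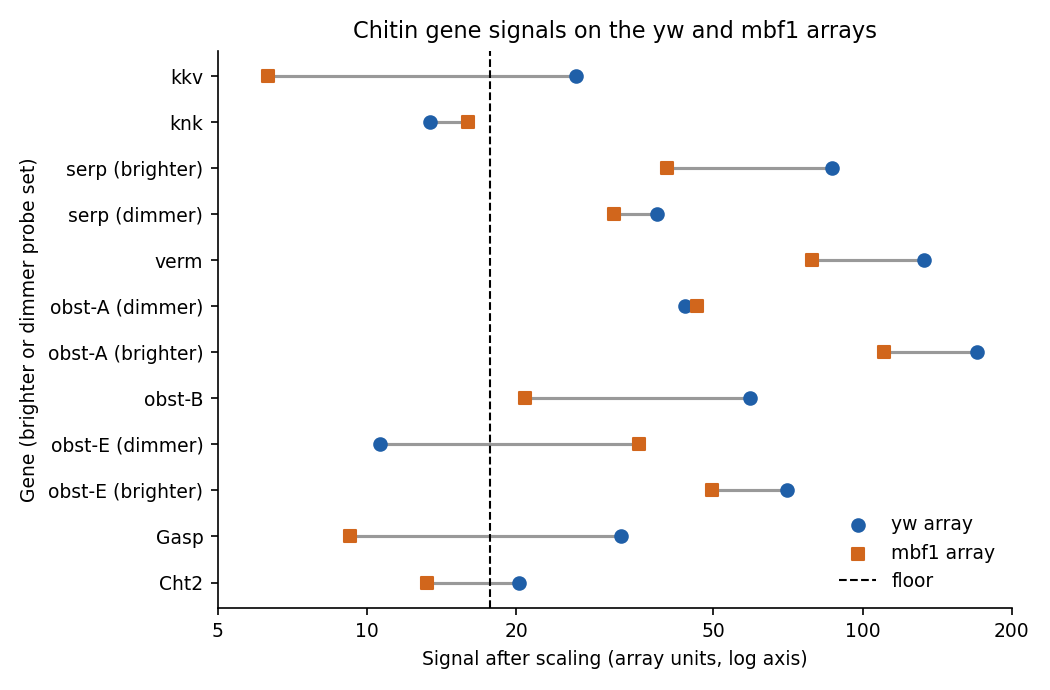
Signal after scaling (array units, log axis) of each of the 12 probe sets on the yw array (circles) and the mbf1 array (squares), with the floor of 17.7 as a dashed line. For kkv, Gasp and Cht2 the mbf1 value lies left of the floor and the yw value right of it, and for obst-E the 2 probe sets run in opposite directions.

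Chitin synthesis was represented by kkv and knk, both dim. The gene kkv, krotzkopf verkehrt, encodes the chitin synthase of the epidermis and trachea. Its signal was 26.4 in yw and 6.31 in mbf1. The second value lies under the floor, so kkv was at least 1.49-fold lower, and the measured values without the floor were 4.19-fold apart. The gene knk, knickkopf, encodes a protein that organises newly made chitin and shields it from chitinases. The probe set read 13.4 in yw and 16.0 in mbf1, both under the floor, so no fold is given.

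The chitin deacetylases serp and verm, serpentine and vermiform, are secreted into the tracheal lumen, where they modify the chitin cable and limit tube elongation. They lie next to each other on chromosome arm 3L in the RefSeq gene table. The verm probe set read 132.8 in yw and 79.2 in mbf1, or 1.68-fold lower. The brighter probe set of serp, had signals of 86.8 and 40.2, or 2.16-fold lower, a log2 ratio of -1.11. The dimmer one, had 38.5 and 31.4, or 1.22-fold lower. All 3 probe sets of the pair were therefore above the floor on both arrays and lower in mbf1 relative to the bulk of genes, by different amounts. Without scaling the dimmer serp probe set turned to 0.26 and the brighter one was at -0.56, no longer 2-fold lower, and on hybridization controls the brighter one was at -0.90. Gbeta76C, the gene on the other side of verm, which encodes the G protein beta subunit of the eye, read 162.4 and 154.1, with a log2 ratio of -0.08.

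Among the obstructor proteins, which carry several chitin-binding domains, is obst-B. Of the 5 chitin genes above the floor on both arrays it had the lowest ratio. Its signal was 59.3 in yw and 20.9 in mbf1, or 2.84-fold lower, a log2 ratio of -1.51. The second value was 1.18 times the floor. The ratios of kkv and Gasp are bounds, and without the floor they were -2.07 and -1.81, lower than that of obst-B. Of the 7688 measured genes, 33 had a ratio as low as that of obst-B or lower, itself included, and 93 one as low as that of serp. These ranks use ratios after the floor, so genes whose ratio is a bound may be ranked too high.

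Gasp, also called obst-C, is a chitin-binding protein of the tracheal lumen known as the antigen of the antibody 2A12. Its signal was 32.5 in yw and 9.26 in mbf1, under the floor. Gasp was thus at least 1.84-fold lower, and 3.51-fold by the measured values without the floor. Together with kkv it shows how the floor bounds a difference, since both were above it on 1 array only and could then only come out lower.

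The gene obst-A encodes a scaffold protein that gathers chitin and deacetylases in the larval cuticle and trachea. Its brighter probe set, had signals of 170.2 in yw and 110.3 in mbf1, or 1.54-fold lower. The dimmer one, had 43.8 and 46.3, or 1.06-fold higher. So obst-A was lower by 1 probe set and not by the other, and without scaling the brighter one was at -0.07.

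The gene obst-E encodes a chitin-binding protein that shapes the larval and pupal body by ordering the cuticle. Its brighter probe set, had signals of 70.2 in yw and 49.6 in mbf1, or 1.42-fold lower. The dimmer one, had 10.6 and 35.4, at least 1.997-fold higher, a log2 ratio of 0.998 and so just under the threshold. Its measured values without the floor were 3.34-fold apart, and it passed the threshold on hybridization controls, at 1.10, without scaling, at 1.28, and under quantile, loess and trimmed-mean scaling. The probe sets of obst-E disagreed in direction.

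The chitinase gene Cht2 was close to the floor on both arrays. The probe set read 20.3 in yw and 13.2 in mbf1, at least 1.15-fold lower.

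**Figure D2:**
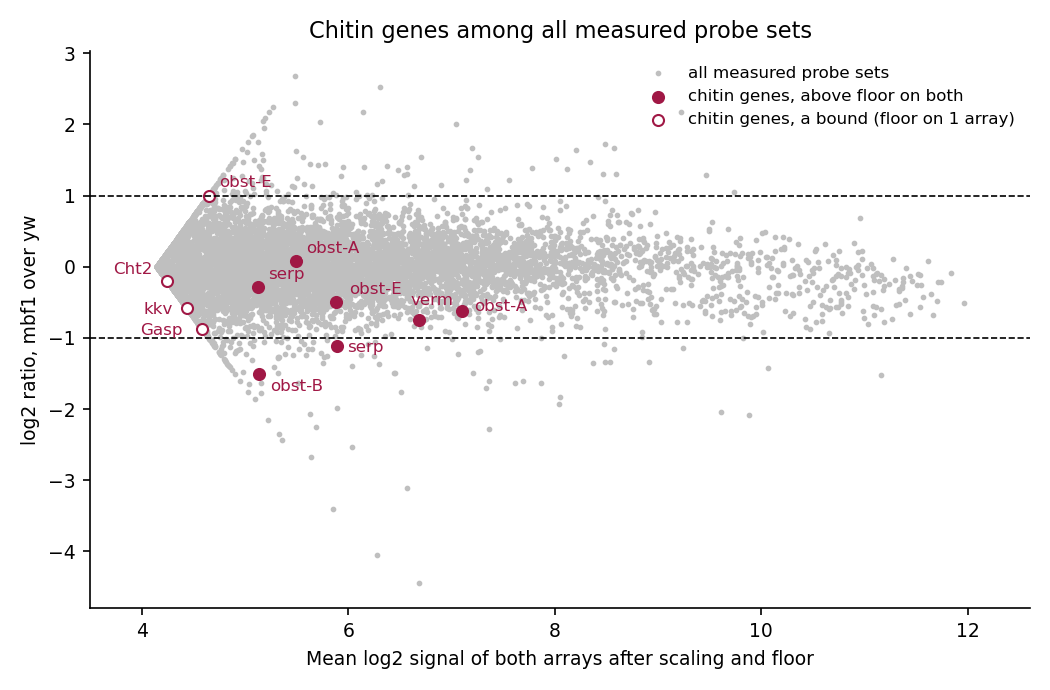
The log2 ratio of mbf1 over yw (vertical) against the mean log2 signal of both arrays after scaling and floor (horizontal) for all measured probe sets (grey) and those of the chitin genes (filled where above the floor on both arrays, open where the ratio is a bound); dashed lines mark 2-fold. The points of obst-B, at -1.51, and the brighter serp probe set, at -1.11, lie below the lower line, and the bounds of kkv, Gasp, Cht2 and the dimmer obst-E probe set lie on the edges that the floor draws.

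A gene above the floor on the yw array only had to come out lower, which was the case for kkv, Gasp and Cht2, so the set was also described without that filter. Without a floor 8 of all 9 genes had a lower value on the mbf1 array, all except knk, with a median log2 ratio of -0.75, and 4 were at least 2-fold lower, namely kkv, serp, obst-B and Gasp, where 6.36% of all genes were called in the same way. Over all 10843 genes taken the same way 50.3% were lower, and the median was -0.0036. The 5 genes that passed the floor on both arrays were serp, verm, obst-A, obst-B and obst-E. Each had a negative ratio by its brighter probe set, as had 50.4% of the 6657 genes that passed on both, and without scaling obst-E turned to 0.05. The 8 measured genes had a median of -0.69. These counts describe 2 arrays. The genes were proposed with results of the arrays known, so the shared direction is no independent evidence.

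Probe sets of 1 gene did not always give the same ratio. Over 260 genes with 2 or more probe sets that passed the floor on both arrays, the 2 brightest differed in log2 ratio by a median of 0.33, and 5% by more than 1.03. The probe sets of obst-A differed by 0.70 and those of serp by 0.82, gaps that 19.2% and 14.2% of the 260 genes reached or passed. Those of obst-E differed by at least 1.499, which 4 of the 260 reached. The dimmer obst-E probe set was under the floor on yw, unlike the pairs of the 260 genes, so this is not a like comparison. The RefSeq gene table lists 2 transcripts for each of serp, obst-A and obst-E, and it gives CG8747 and CG8748 as older names of serp. Which transcript or older gene model a probe set reads is not given in the sources used here. From these pairs the SD of a single log2 ratio was 0.38, which holds the error between probe sets but not between arrays or animals. The ratio of verm, -0.75, and those of kkv, obst-B, Gasp and Cht2 rest on 1 probe set each.

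**Figure D3:**
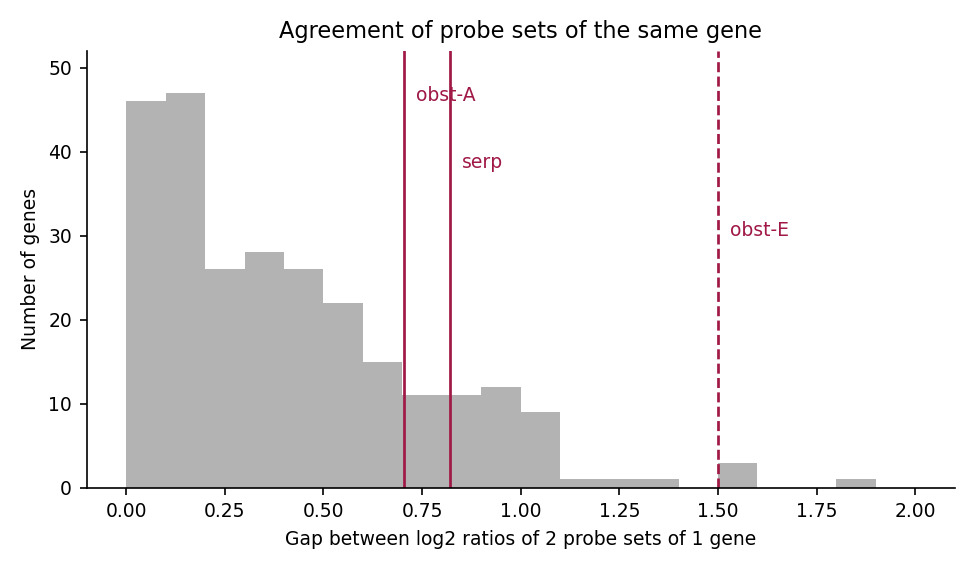
Number of genes (vertical, of 260) by the gap between the log2 ratios of their 2 brightest probe sets (horizontal), with lines at the gaps of obst-A, serp and obst-E; the dashed line of obst-E is a lower bound. The gaps of obst-A, at 0.70, and serp, at 0.82, fall inside the tail of the distribution and that of obst-E, at 1.499, near its end. The dimmer obst-E probe set was under the floor on yw, so its pair is unlike those of the 260 genes.

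How far the genes differed depended on how the arrays were brought to one level. As deposited, 7 of the 12 probe sets had a lower value on the mbf1 array and 5 a higher one. Without scaling the median ratio of all measured genes was 0.50, and with scaling on the hybridization controls, bacterial transcripts added in known amounts, it was 0.19. The ratio of obst-B stayed negative, at -0.95 without scaling and -1.29 on hybridization controls. So did those of verm, at -0.20 and -0.53, Gasp, at -0.60 and -0.77, kkv, at -0.31 and -0.47, and the brighter serp probe set, at -0.56 and -0.90. Without scaling the brighter obst-E probe set turned to 0.05 and the dimmer serp probe set to 0.26, while the brighter obst-A probe set was at -0.07. On hybridization controls these 3 were at -0.29, -0.08 and -0.41. The 3 scalings differ only by a constant factor on the mbf1 array. Apart from the floor, all ratios and the median of all genes therefore shift together. Whether a gene lies below that median is thus not checked by changing between these scalings.

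**Figure D4:**
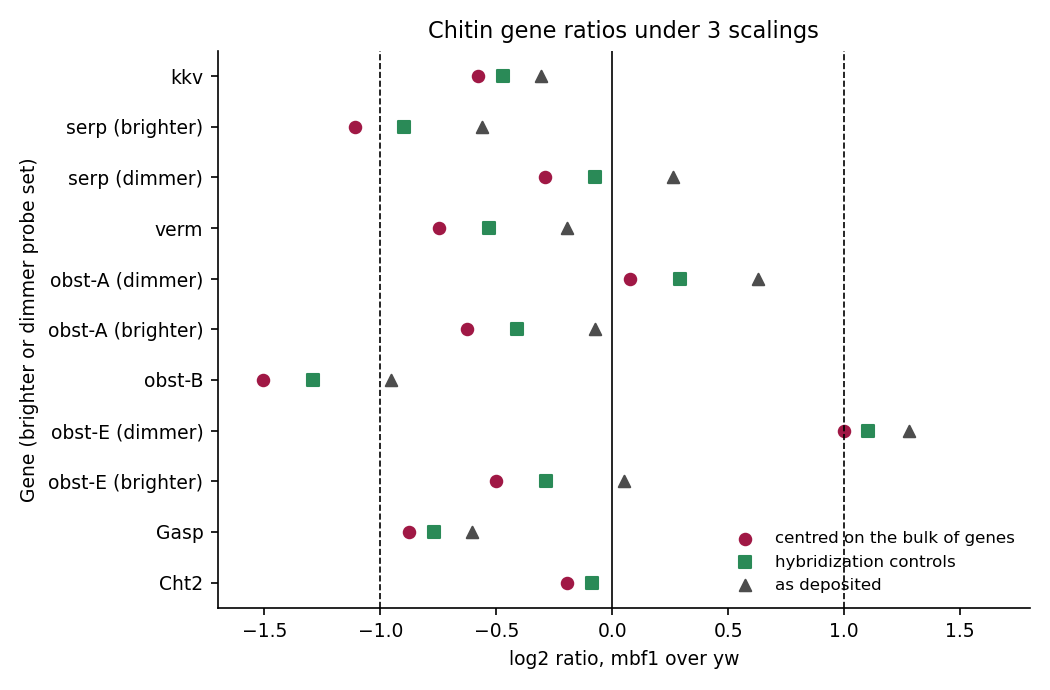
The log2 ratio of mbf1 over yw (horizontal) of each measured probe set with the arrays centred on the bulk of genes (circles), scaled on hybridization controls (squares) or as deposited (triangles), each with its own floor; dashed lines mark 2-fold. The ratio of obst-B runs from -1.51 to -0.95 and stays left of 0, while the brighter obst-E probe set crosses 0 as deposited, at 0.05. Cht2 has no triangle because it was under the floor of the unscaled values, and knk, measured only as deposited, is not drawn.

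In the rest of the chitin pathway 1 measured gene was at least 2-fold apart. The lists of the pathway, which include the 9 genes, held 61 genes, of which 52 had a probe set and 36 were measured. Outside the 9 genes, 28 of 43 were measured, 0 were at least 2-fold lower and 1 was higher. Of all measured genes 1.63% were called lower and 1.51% higher. Negative ratios were found for 16 of the 28, with a median of -0.10, where 50.1% of all measured genes had one. With 28 genes, these counts do not set the rest of the pathway apart from all genes. The lists were drawn up with earlier results of these arrays known.

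Upstream of the synthase, 7 of 8 genes for the chitin precursor UDP-N-acetylglucosamine were measured, with 0 at least 2-fold apart and a median of -0.15. The gene mmy, mummy, encodes the pyrophosphorylase of the last step. Its signal was 382.1 in yw and 231.2 in mbf1, or 1.65-fold lower, the lowest ratio of that list. Gfat2, an aminotransferase of the first committed step, had signals of 96.7 and 140.8, or 1.46-fold higher. Beside kkv, the second chitin synthase gene Chs2, of the gut lining, read 41.7 and 33.1, or 1.26-fold lower. The genes exp and reb, which are needed with kkv for chitin deposition, were under the floor in both.

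Among the other deacetylase genes, Cda5 read 28.2 and 9.58, at least 1.59-fold lower, and Cda4 45.1 and 39.3, or 1.15-fold lower. Cda9 had 2.76 and 19.3, at least 1.09-fold higher. Of the list of 6 deacetylase genes 5 were measured, with serp the only one at least 2-fold lower and a median of -0.67.

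Of 16 obstructor, peritrophin and mucin genes with a probe set, 9 were measured, with obst-B at least 2-fold lower, Muc55B higher and a median of -0.24. The mucin gene Muc55B had signals of 7.76 and 43.2, at least 2.44-fold higher. Muc68D had 254.9 and 357.9, or 1.40-fold higher. Peritrophin-15a, of the chitin lining of the midgut, had 275.6 and 337.4, or 1.22-fold higher. Peritrophin-A, next to obst-A in the gene table, was under the floor on both arrays, as were obst-F, obst-G, obst-H and obst-J. By their brighter or only probe set, the 4 measured members of the set, obst-A, obst-B, obst-E and Gasp, had negative ratios. Of the other 5 measured genes, 4 had positive ones. The dimmer probe sets of obst-A and obst-E had positive ratios. Gasp passed the floor on yw only and could only come out lower, and Muc55B on mbf1 only and could only come out higher. That difference was not tested.

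Of 17 chitinase, hexosaminidase and Idgf genes, the last of which encode chitinase-like growth factors, 13 were measured, with 0 at least 2-fold apart and a median of -0.12. Cht5, a chitinase of moulting, read 37.0 and 22.4, or 1.65-fold lower, and Idgf1 19.4 and 31.9, or 1.64-fold higher. Cht9 had 85.9 and 91.8, or 1.07-fold higher.

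Most listed genes of adult cuticle had lower signals in mbf1, and likeness to the chitin genes cannot be measured with 2 arrays. The list was put together after its ratios were known and is therefore no evidence of a direction. Of 8 listed, 7 were measured and 6 were at least 2-fold lower, where 1.63% of all measured genes were called lower and 1.51% higher. Their summed signal, most of it from Acp1 and Vajk2 in both, was 4513 in yw and 1424 in mbf1. The sum over the 9 chitin genes was 612.0 in yw and 344.9 in mbf1, and since probe sets differ in response the sums of different lists are not compared. Vajk1 was under the floor on both arrays, and no listed gene was at 0. The larval and pupal cuticle list had a summed signal of 382.1 and 311.4, with 5 of 11 measured, 0 at least 2-fold apart and 3 of the 5 ratios positive. Tracheal genes had summed signals of 240.1 and 218.1, with 3 of 6 measured ratios negative. Of 8 hemocyte genes 7 were measured, 6 with positive ratios and 2 at least 2-fold higher, PPO1 at 2.47-fold and PPO2 at 2.33-fold, with summed signals of 399.4 and 694.5. Of 10 eggshell genes 5 were measured, 4 with negative ratios and 0 at least 2-fold apart, with summed signals of 291.7 and 218.6. The part of these tissues in the ratios of the chitin genes was not tested.

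Measured neighbours of the chitin genes, other than serp and verm, had log2 ratios between -0.14 and 0.94. The genes flanking kkv, 7B2 and CG14668, had log2 ratios of 0.41 and 0.43. The gene sw beside obst-A had one of 0.94, CG8001 beside Cht2 one of 0.20 and CG11029 beside obst-E one of -0.06. Only the pair serp and verm were neighbours that were both lower by more than 1.5-fold.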

How the data were processed

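RNA of yw and of homozygous mbf1 mutants was measured on 1 array each. The authors deposited 1 linear intensity per probe set, computed with MAS5 per the submitters' processing notes; which version and target level were used is not stated there. Symbols came from GEO's platform annotation, checked by gene identifier for 12393 of 12443 single-gene probe sets against RefSeq's Release 6 table, with 0 changed. The sources used here name no genome build, and coordinates were left out. The value table had 0 columns beyond the arrays.

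The median log2 ratio of probe sets in the brighter part of both arrays (0.55) was subtracted, where brighter means above the array's median, and values were then floored at the 40th percentile of pooled values. The number of arrays limits the precision, and detection calls were not used. Named were all probe sets of the 9 genes, mbf1, and in each chitin list the genes at least 2-fold apart or else those with the largest ratios; Chs2, Cda4, Cda9, Muc68D, Peritrophin-15a, Cht9, the genes under the floor and the neighbours were added after their values were seen. The 9 genes and the lists were chosen with earlier results of these data known. The procedure was tested on simulated data with changes larger than those of obst-B and serp, planted in bright probe sets only. That test does not cover signals near the floor. Python 3.11.15, pandas 2.3.3 and statsmodels 0.14.6 were used.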

Additional observations from a re-analysis of the deposited data

How the results depend on the processing

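No paired analysis was possible because each genotype had 1 array. In the main setting 2 chitin genes were lower and 0 higher, with a median of -0.69 over the measured ones. Over the 7688 measured genes 125 were lower, or 1.63%, and 116 higher, or 1.51%. Settings moved mainly the counts. The counts over all genes below are likewise of measured genes, whose number is not the same in every setting. Without scaling the median was -0.25, over measured chitin genes that then included knk and not Cht2. In that setting 0 chitin genes were lower, with 34 lower and 801 higher over all genes. On hybridization controls 1 chitin gene was lower (obst-B), with 78 and 235 over all. With the floor at the 25th percentile 4 were lower (kkv, serp, obst-B and Gasp), with 262 and 281 over all; at the 60th percentile 1 (serp), with 58 and 53; with a pseudocount 4, with 205 and 226; and with no floor, a setting chosen after seeing the data, 4, with 263 and 281. The setting with no floor kept the filter to measured genes, whereas the 6.36% given above was taken over all 10843 genes. Averaging probe sets left 1 (obst-B), with 117 and 112. A threshold of 1.5-fold gave 5, with 593 and 573, and of 3-fold 0, with 29 and 24, by construction. Quantile, loess and trimmed-mean scaling and the filter to genes above the floor on both arrays kept obst-B and serp as the 2 lower genes. In the other settings the median stayed between -0.93 and -0.50. Of 101 values of single probe sets under alternatives, 82 moved by less than 0.38, the SD of a ratio between probe sets. Changing or dropping the floor, or filtering on it, cannot move a probe set that stays above it on both arrays. Part of the 82 was therefore fixed in advance and is no sign of stability. The called ratios were those of obst-B and the brighter serp probe set, and 0 of them changed sign. Uncalled ratios did so without scaling, with the dimmer serp probe set at 0.26 and the brighter obst-E one at 0.05. Signal over background limits kkv, knk, Gasp and Cht2, which were under the floor on at least 1 array.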

Other observations

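Septate junctions are the barrier junctions of fly epithelia and are needed for serp and verm to be secreted into the tracheal lumen. Whether these junctions bear on the RNA signals of serp and verm was not tested. Of 13 septate junction genes with a probe set 11 were measured, with 0 at least 2-fold apart, 6 negative ratios and a median of -0.02. Of all measured genes 1.63% were called lower, 1.51% higher, and 50.1% had negative ratios. Nrg, neuroglian, had the largest ratio in size among them, with signals of 70.0 in yw and 100.9 in mbf1, or 1.44-fold higher, and cora, coracle, had 59.9 and 75.8. Among zona pellucida proteins of the apical matrix 4 of 8 were measured, with 0 at least 2-fold apart. Of these, zye was at least 1.53-fold lower and pio, piopio, a tracheal lumen protein, had signals of 176.9 and 156.0.

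Of 11 transcription factor genes listed for cuticle genes, 4 were measured. The factor genes grh, grainy head, and ftz-f1, whose product is a known partner of MBF1, lay under the floor, with 14.1 in yw and 17.3 in mbf1 for grh and 13.0 and 8.20 for ftz-f1. No ratio can therefore be given here for grh or ftz-f1. The 4 measured factor genes were split, with 2 negative ratios and 2 positive. The AP-1 gene kay was 1.23-fold higher, at 59.2 in yw against 72.6 in mbf1. The gene vvl was 1.29-fold lower, at 39.1 in yw against 30.2 in mbf1, while rib stood at a log2 ratio of -0.04. The remaining gene, ovo, was at least 1.37-fold higher. It lay under the floor in yw, at 3.73, so any ratio for it had to be positive.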
